A study of Mus musculus with 4 samples.

Results

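The Myc, Max and Mxd network is a small family of basic helix-loop-helix leucine zipper transcription factors, examined here as 10 named genes of the 36445 in the deposited table. They were taken by symbol: Myc, Mycn, Mycl, Max, Mxd1, Mxd3, Mxd4, Mxi1, Mnt and Mga, each of which matched 1 entry. RNA came from MC38, an established mouse line labelled as colon cancer. Cells of 1 group received PBS and those of the other 1 mM of 5-fluorouracil (5-FU), each for 24 h, with 2 libraries per group. All were grown in medium with serum, the labels name no other agent or genetic change, and polyadenylated RNA was sequenced. 5-FU is an anticancer drug, a uracil analogue that starves cells of thymidylate and is also built into nucleic acids. The comparison asks how each gene's transcript level differed after 5-FU.

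Max is the shared partner of the network. MYC proteins bind DNA as heterodimers with MAX at E-boxes, of which CACGTG is the canonical form, and raise transcription of genes for growth, ribosome production and metabolism. The MXD proteins and MNT also pair with MAX at E-boxes, recruit SIN3 and histone deacetylases, and repress. MGA pairs with MAX too and is a scaffold of a variant Polycomb complex. In the intestine, Myc is a well-known target of Wnt and beta-catenin signalling, and its mRNA and protein are both short-lived.

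Of the colon epithelial markers, 0 of 12 reached 1 FPKM (sequenced fragments relative to gene length and library depth) in any library, while 8 of 10 mesenchymal markers did, among them Vim at up to 1069 FPKM. Vim and Fn1 led the mesenchymal list (973 and 389 FPKM in PBS 1), while Acta2 and Thy1 stayed below 1 FPKM. Summed levels were 0.865 to 2.4 FPKM for the epithelial list and 1349 to 1594 for the mesenchymal list, most of it Vim and Fn1. They were 1.77 to 3.37 for leukocyte markers and 1.99 to 3.78 for endothelial and erythroid markers. The label of colon cancer is thus not borne out by epithelial transcripts. By estimate the libraries held 41.3 M (PBS 1), 41.6 M (PBS 2), 20.8 M (5-FU 1) and 20.6 M (5-FU 2) reads. Groups were compared with limma on log2(FPKM + 1), and an adjusted p under 0.05 over the 11644 tested genes counted as past the threshold. The labels do not say that replicates came from separate cultures, so p-values measure only the spread between these libraries, which may be technical.

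Of the 10 genes, 8 were tested, and each of the 8 reached 1 FPKM in every library. After 5-FU, Myc, Mxi1, Mnt, Mga and Mxd3 fell, 0 rose, and Max, Mxd1 and Mxd4 did not pass. Over all tested genes 31.2% fell and 22.1% rose by the same rule. Without adjustment, 1 gene (Mxd1) was higher at p under 0.05. Lower levels in these bulk libraries cannot be told apart from fewer cells that express a gene. The median difference of the 8 was -1.04 log2, beside -0.097 over all tested genes. Both 5-FU libraries lay below both PBS libraries for 5 of the 8 and above them for 2, and such separation held for 45.1% (below) and 35.9% (above) of tested genes.

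**Figure D1:**
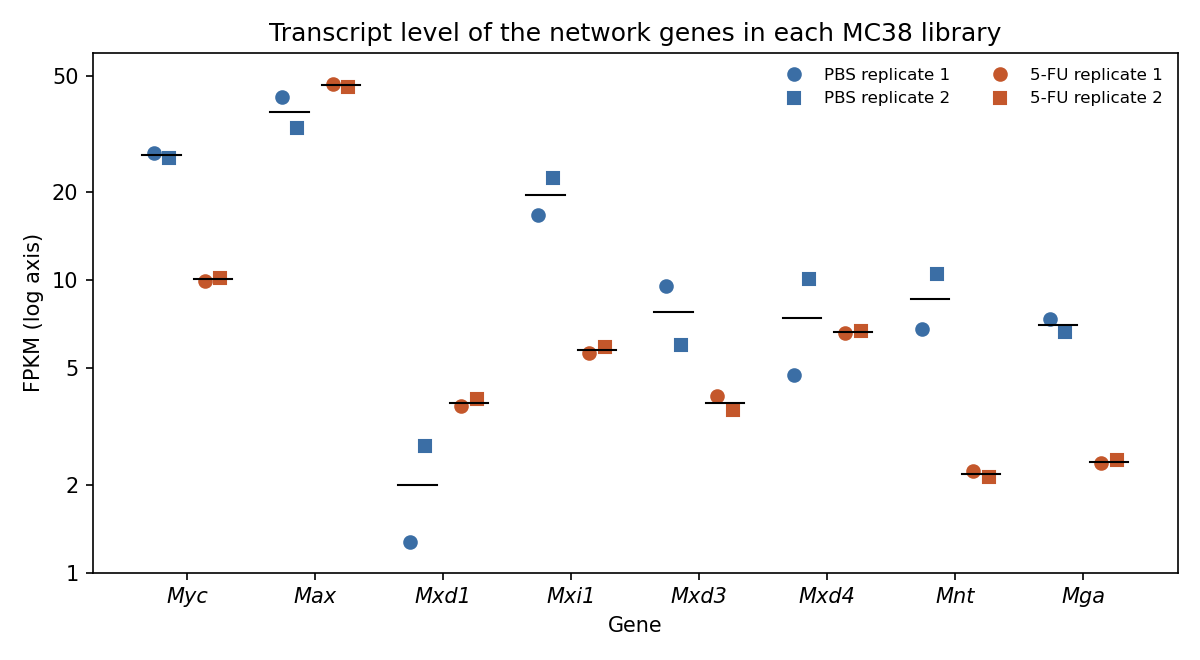
FPKM on a log axis for the 8 tested genes in each library (circles replicate 1, squares replicate 2, blue PBS, orange 5-FU; black bars are group means). Myc, Mxi1, Mnt, Mga and Mxd3 lie lower in both 5-FU libraries, the 5-FU replicates nearly coincide, and the PBS replicates are far apart for Mxd1 and Mxd4.

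Myc encodes the growth-promoting factor c-MYC (chromosome 15, 61985391 to 61990374, plus strand, GRCm38). It measured 27.3 and 26.2 FPKM in PBS replicates 1 and 2 and 9.92 and 10.2 FPKM in 5-FU replicates 1 and 2. The replicates of each group nearly coincided and the groups did not overlap. Mean levels were 26.8 ± 0.746 and 10.1 ± 0.201 FPKM (SD, n = 2 per group), a 2.66-fold fall. The difference was -1.33 ± 0.11 log2 (SE; limma adjusted p = 0.003), and 8.6% of tested genes had a lower one. The gene was well covered, with about 3065 and 2966 reads in PBS and 561 and 572 in 5-FU. The call was lost without 5-FU replicate 1 (adjusted p = 0.0595) or 5-FU replicate 2 (0.0583), with the difference at -1.31 and -1.35.

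The paralogs of Myc were near or at zero, so Myc supplied nearly all MYC family transcripts. Mycn, the neuroblastoma-associated member (chromosome 12, 12936093 to 12941914, minus strand), was listed at 0 in all 4 libraries. A count of 0 allows up to 3 reads, which is 0.022 and 0.0219 FPKM in the PBS libraries and 0.0437 and 0.0442 in the 5-FU libraries. Mycl, first found in lung cancer (chromosome 4, 122995652 to 123002485, plus strand), measured 0.0224 and 0.0334 FPKM in PBS and 0.0111 and 0 in 5-FU, about 3.74, 5.61, 0.935 and 0 reads. At that depth no difference could be detected, and neither gene was tested. These floors cover counting error only.

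Max, the shared partner of the network (chromosome 12, 76937269 to 76962201, minus strand), was the most abundant of the 10 genes in both groups. It measured 42.3 and 33.1 FPKM in PBS and 47.1 and 45.9 FPKM in 5-FU. Both 5-FU values lay above both PBS values, but the gap between the PBS replicates was larger than that from PBS replicate 1 to either 5-FU library. The difference was 0.31 ± 0.151 log2 (95% interval -0.09 to 0.70, limma adjusted p = 0.148). It passed, higher, with median-ratio scaling (0.43 log2, adjusted p = 0.0453) and without PBS replicate 1 (0.48 log2, 0.000724). The interval for Max excludes a difference as low as that of Myc.

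Among the MXD repressors, Mxi1 was the most abundant in PBS. On the log2(FPKM + 1) scale its fall was the largest of the tested members, nearly level with that of Mnt (-1.59 and -1.58). With a pseudocount of 0.5 the order reversed (-1.66 for Mxi1 and -1.75 for Mnt). Mxi1, also called Mxd2 (chromosome 19, 53310518 to 53375810, plus strand), measured 16.7 and 22.4 FPKM in PBS and 5.66 and 5.91 FPKM in 5-FU. The groups were well apart. It fell 3.38-fold, from 19.6 ± 4.01 to 5.78 ± 0.18 FPKM, by -1.59 ± 0.176 log2 (limma adjusted p = 0.00426; 0.0625 and 0.0612 without 5-FU replicates 1 and 2). A share of its exons, 194 bp, overlaps a weakly expressed predicted gene on the opposite strand, which reached at most 3.62 FPKM. RefSeq lists 3 start sites for Mxi1, and the table does not separate its isoforms.

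Mxd3 is the family member usually tied to the S phase of dividing cells (chromosome 13, 55325168 to 55329823, minus strand). It measured 9.55 and 6.0 FPKM in PBS and 4.02 and 3.61 FPKM in 5-FU. All 5-FU values were lower, but PBS replicate 1 exceeded PBS replicate 2 by 1.59-fold. It fell 2.04-fold, by -0.84 ± 0.234 log2 (limma adjusted p = 0.0376). The call was lost with no filter on low values (0.108), with quantile normalization (-0.51 log2, 0.117) and without 5-FU replicate 1 (0.187) or 2 (0.237). Mxd3 exons overlap those of Prelid1, on the opposite strand, by 105 bp. Prelid1 reached 414.3 FPKM, and whether its reads entered the Mxd3 value was not tested.

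Mxd1, which encodes MAD1, a repressor that rises in many differentiating cells (chromosome 6, 86647042 to 86669161, minus strand), had the highest difference of the tested members. It measured 1.27 and 2.72 FPKM in PBS and 3.71 and 3.92 FPKM in 5-FU. Both 5-FU libraries were above both PBS libraries, which themselves differed 2.14-fold. The difference was 0.73 ± 0.267 log2 (95% interval 0.02 to 1.43) and did not pass (limma adjusted p = 0.0756). It passed, higher, with quantile normalization (1.02 log2, 0.0309), with the exonic length trend removed (1.04 log2, 0.0373), and without PBS replicate 1 (0.37 log2, 0.0129) or PBS replicate 2 (1.08 log2, 0.000225).

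Mxd4, another MXD repressor (chromosome 5, 34173883 to 34187720, minus strand), measured 4.74 and 10.1 FPKM in PBS and 6.62 and 6.71 FPKM in 5-FU. Both 5-FU values fell between the PBS values. The difference was -0.06 ± 0.334 log2 (95% interval -0.94 to 0.82, limma adjusted p = 0.897). Its direction rested on single PBS libraries: it was -0.53 without PBS replicate 1 (adjusted p = 0.00132) and 0.42 without PBS replicate 2 (0.00532). The PBS replicates differed 2.12-fold, and only 4.52% of tested genes had a larger gap between those libraries on the log2(FPKM + 1) scale. Mxd4 exons also overlap those of an antisense gene by 514 bp.

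Mnt encodes the broadly expressed repressor that competes with MYC for MAX (chromosome 11, 74830920 to 74845725, plus strand). It measured 6.80 and 10.5 FPKM in PBS and 2.22 and 2.12 FPKM in 5-FU. No values of the groups overlapped, and the 5-FU replicates nearly coincided. The 3.99-fold fall was the largest of the 8 by ratio of means, and the difference was -1.58 ± 0.224 log2 (limma adjusted p = 0.00649; 0.0746 and 0.078 without 5-FU replicates 1 and 2). About 5.00% of tested genes had a lower difference.

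Mga, which encodes a very large protein with both a T-box and a helix-loop-helix zipper domain (chromosome 2, 119897228 to 119969581, plus strand), measured 7.40 and 6.67 FPKM in PBS. In 5-FU it measured 2.37 and 2.42 FPKM. Both groups were tight. Mga fell 2.94-fold, by -1.24 ± 0.134 log2 (limma adjusted p = 0.00404; 0.0813 and 0.08 without 5-FU replicates 1 and 2). With the exonic length trend removed, the difference was -0.68 log2 and still passed (adjusted p = 0.0143).

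**Figure D2:**
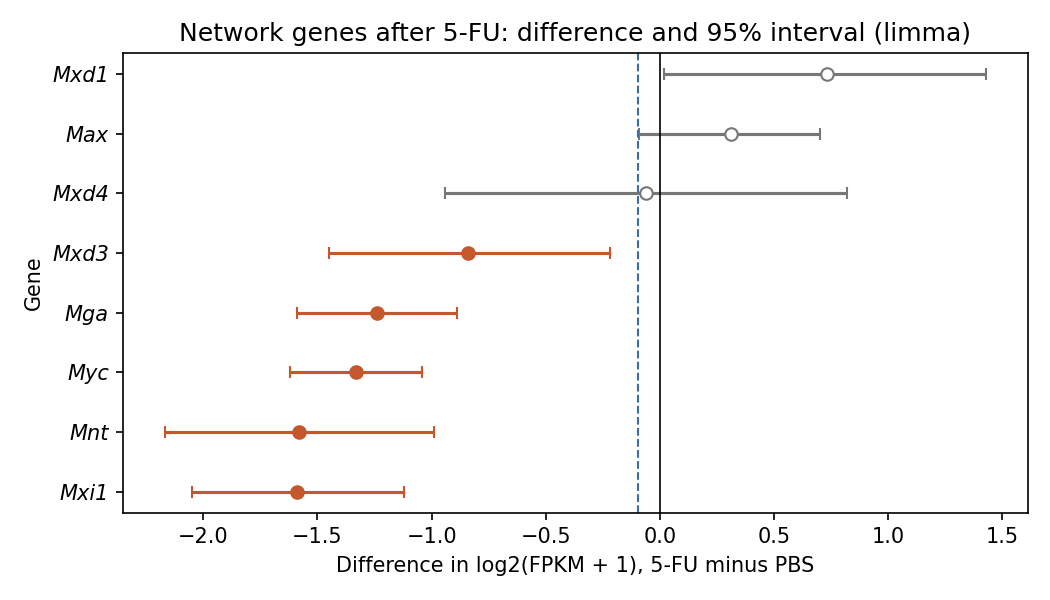
Difference in log2(FPKM + 1), 5-FU minus PBS, for each tested gene with its 95% interval from limma (filled orange points passed the threshold, open grey points did not). The dashed blue line marks the median over all tested genes, -0.097, and 5 genes lie to its left with intervals that exclude 0.

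Gene span moved with the 5-FU difference across the genome, so it is given beside these falls. Among tested protein-coding genes, 25.3% of those spanning under 10 kb fell, 28.3% of those of 10 to 50 kb, 43.6% of those of 50 to 100 kb and 56.9% of those of 100 kb or more. Myc (4.98 kb) and Mxd3 (4.66 kb) are in the shortest class, Mnt (14.8 kb), Mxd1, Mxd4 and Max in the next, and Mxi1 (65.3 kb) and Mga (72.4 kb) in the class of 50 to 100 kb. With the span trend removed, the same 5 genes fell, at -1.36 for Myc, -0.87 for Mxd3, -1.61 for Mnt, -1.20 for Mxi1 and -0.83 for Mga.

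The order of the transcript levels also differed between the groups. In PBS it ran Max (37.7 FPKM), Myc (26.8), Mxi1 (19.6), Mnt (8.65), Mxd3 (7.77), Mxd4 (7.41), Mga (7.03), Mxd1 (2.00), Mycl and Mycn. The values of neighbours overlapped from Mnt through Mga, so these 4 cannot be ranked. In 5-FU it ran Max (46.5), Myc (10.1), Mxd4 (6.66), Mxi1 (5.78), Mxd1 (3.81), Mxd3 (3.81), Mga (2.39), Mnt (2.17), Mycl and Mycn, and among the expressed genes only the values of Mxd1 and Mxd3 overlapped.

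Summed by role, transcripts of the MAX partners outnumbered Max in PBS and not in 5-FU. The partners together (MYC family, MXD family, Mnt and Mga) came to 73.8 and 84.6 FPKM in PBS and 34.5 and 34.9 FPKM in 5-FU, which is 1.75 and 2.55 per unit of Max in PBS and 0.732 and 0.76 in 5-FU. Myc per unit of Max was 0.646 and 0.792 in PBS and 0.211 and 0.222 in 5-FU. The MYC family made up 37.0% and 31.0% of partner transcripts in PBS and 28.8% and 29.2% in 5-FU. For this share, the gap between the PBS libraries was larger than that from PBS replicate 2 to either 5-FU library. These sums are of RNA, carry no test, and say nothing of protein.

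Ratios of the activator to its repressors differed unevenly between the groups, and none was tested. Myc per Mnt was 4.02 and 2.50 in PBS and 4.47 and 4.82 in 5-FU. The gap between the PBS libraries was larger than that from PBS replicate 1 to either 5-FU library. Myc per Mxd1 was 21.5 and 9.64 in PBS and 2.68 and 2.60 in 5-FU, though Mxd1 itself did not pass. The MYC family per MXD family was 0.846 and 0.638 in PBS and 0.497 and 0.507 in 5-FU. Within the MXD family, Mxi1 held 51.8% and 54.4% of the transcripts in PBS and 28.3% and 29.3% in 5-FU, whereas Mxd1 held 3.94% and 6.61% and then 18.5% and 19.5%. The share of Mxd4 was 14.7% and 24.5% in PBS and 33.1% and 33.3% in 5-FU. The share of Mxd3, 29.6% and 14.6% in PBS and 20.1% and 17.9% in 5-FU, overlapped between the groups.

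**Figure D3:**
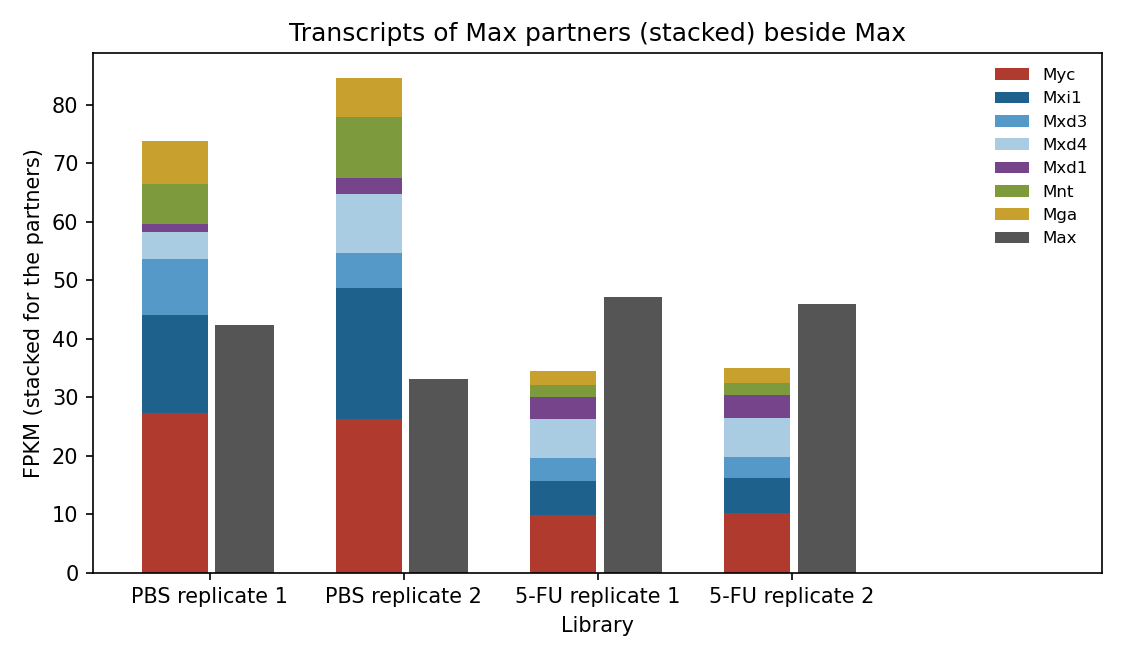
Stacked FPKM of the genes whose products pair with MAX (left bar of each pair) beside Max (grey bar) in each library. The stacks reach 73.8 and 84.6 FPKM in PBS and 34.5 and 34.9 FPKM in 5-FU, while the Max bars stay between 33.1 and 47.1.

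The network's own binding motif occurs in the promoters of some members. The E-box CACGTG, which reads the same on both strands, was searched in RefSeq windows from 250 bases before to 50 after each start site (GRCm38.p6). It was found for Mnt, Max and Mxd4, which is 3 of the 9 members with a window, beside 8.09% of all 27025 genes with one. The related CACGCG, searched on both strands, was found for Mga and Mycl, beside 10.5% of all genes. Stretches of these 3 windows that hold CACGTG are shown because one gene fell after 5-FU and the others did not pass; each starts at the first base of its window and is 250 bases long for Mnt and Mxd4 and 270 for Max, where the E-box crosses the start site. Capitals mark the E-box, and each sequence runs 5′ to 3′ on the gene's strand. They are chr11:74830674-74830923 (plus) for Mnt, chr12:76962229-76962498 (minus) for Max and chr5:34187711-34187960 (minus) for Mxd4.
Mnt: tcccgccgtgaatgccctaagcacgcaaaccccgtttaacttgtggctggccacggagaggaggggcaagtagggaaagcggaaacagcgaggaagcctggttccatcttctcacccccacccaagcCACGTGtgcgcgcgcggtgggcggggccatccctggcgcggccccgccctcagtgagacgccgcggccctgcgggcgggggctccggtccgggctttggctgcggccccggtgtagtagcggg
Max: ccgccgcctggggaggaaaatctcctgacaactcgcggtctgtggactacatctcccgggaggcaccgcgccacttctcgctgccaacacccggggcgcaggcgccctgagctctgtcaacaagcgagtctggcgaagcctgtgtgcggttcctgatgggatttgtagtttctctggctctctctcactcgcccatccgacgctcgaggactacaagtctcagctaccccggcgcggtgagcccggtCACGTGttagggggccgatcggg
Mxd4: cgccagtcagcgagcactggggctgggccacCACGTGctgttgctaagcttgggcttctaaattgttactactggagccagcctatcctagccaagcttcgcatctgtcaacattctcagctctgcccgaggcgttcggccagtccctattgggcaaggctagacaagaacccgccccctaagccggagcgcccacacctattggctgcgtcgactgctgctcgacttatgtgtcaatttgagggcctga

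The first base of the E-box lies at -123 in Mnt, -3 in Max and -219 in Mxd4, counted from the start site at 1 with no 0. Genes with the motif therefore included the 3.99-fold fall of Mnt, the small difference of Max and the unresolved one of Mxd4. A match in these letters is a description and shows no binding.

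By the distance between log2(FPKM + 1) profiles over the 4 libraries, each centred on its own mean, the genes most like Myc were Sept8 (0.0299), Fam122a (0.0464) and Tenm3 (0.0496). Sept8, for instance, measured 40.2, 38.6, 15.3 and 15.3 FPKM in PBS 1, PBS 2, 5-FU 1 and 5-FU 2. The nearest member to Myc was Mga (0.101). The genes most like Max were Nif3l1 (0.0186), Usp19 (0.0276) and Ddt (0.0421), and no member came closer to Max than Mxd1 (0.86). The genes most like Mxi1 were Pgm2 (0.0322), Dnmt3a (0.0455) and Adam9 (0.0488), and its nearest member was Mnt (0.134). Unnamed gene models and the genes of 1 chromosome were passed over in naming these. With 4 libraries in 2 groups, many genes share such a profile.

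Neither tested gene of the parallel Mlx branch passed. Mlx, a partner of MXD1, MXD4 and MNT as well as of the glucose-sensing Mondo proteins, measured 25.4 and 21.7 FPKM in PBS and 29.3 and 31.7 FPKM in 5-FU (limma adjusted p = 0.0709). Mlxip, which encodes MondoA, measured 9.32 and 6.14 FPKM and then 5.35 and 5.47 FPKM (adjusted p = 0.158). Mlxipl, which encodes ChREBP, was at or near 0 throughout and was not tested. Thus 0 of 2 tested genes passed, and 1 (Mlx) was higher at an unadjusted limma p under 0.05. Mlx passed, higher, with median-ratio scaling or without mitochondrial and ribosomal protein genes. In the branch, 1 gene was higher without PBS replicate 1, and 1 was higher and 1 lower without PBS replicate 2.

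Of 15 tested MYC coactivators and partners, 4 rose and 2 fell (26.7% and 13.3%, beside 22.1% and 31.2% of all tested genes), with a median of 0.011 log2. More of these genes passed with either PBS library left out, as did more of all tested genes. Rises led without PBS replicate 1 and falls led without PBS replicate 2. Zbtb17, which encodes MIZ1, the zinc finger protein through which MYC represses genes, rose 3.75-fold, from 5.10 and 5.50 FPKM in PBS to 20.4 and 19.4 in 5-FU (1.73 ± 0.121 log2, limma adjusted p = 0.0027). The groups were far apart. Ruvbl1, an ATPase of chromatin remodelling complexes, rose 2.01-fold and Ccnt1, the cyclin of the elongation kinase P-TEFb, rose 2.02-fold. Ruvbl2, the partner ATPase of Ruvbl1, and Cdk9, the kinase that Ccnt1 activates, fell by 0.41 and 0.46 log2. These falls were lost in 9 and 6 of 16 alternative settings, and with median-ratio scaling 4 genes of the list rose and 0 fell.

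Of 15 SIN3 and HDAC corepressor genes, 5 rose and 5 fell (33.3% each, beside 22.1% and 31.2% of all tested genes), and the paralogous scaffolds moved in opposite directions. Calls grew in number with either PBS library left out, here and over all tested genes. Sin3a, a scaffold that MXD proteins bind, fell 2.71-fold, from 26.1 and 27.0 FPKM to 9.93 and 9.66 FPKM (-1.35 ± 0.11 log2, limma adjusted p = 0.00287). Sin3b rose 1.76-fold, from 27.9 and 30.4 FPKM to 51.8 and 50.8 FPKM (0.80 ± 0.108 log2, adjusted p = 0.00592). Neither pair of groups overlapped. The histone deacetylase gene Hdac2 rose 1.63-fold and Brms1 1.73-fold, while Ing2 and Arid4b, SIN3-associated chromatin readers, fell 4.77-fold and 2.56-fold. Of these, the call of Arid4b was lost with the exonic length or the span trend removed, and that of Brms1 with the former and with no filter. The counts higher were 3 with no filter on low values and 8 with the span trend removed, and with median-ratio scaling 7 rose and 4 fell.

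Of the other 13 tested subunits of the MGA complex, 4 rose and 2 fell (30.8% and 15.4%, beside 22.1% and 31.2% of all tested genes), with a median of 0.248 log2. With either PBS library left out more of the 13 passed, and so did more of all tested genes. L3mbtl2, a methyl-lysine reader of the complex, rose 2.10-fold (10.2 and 6.60 to 18.1 and 17.1 FPKM), and Wdr5 and Hdac2, which the lists above share, rose 1.80-fold and 1.63-fold. Tfdp1, the partner of E2F6, fell 2.21-fold, from 120 and 72.9 FPKM to 42.1 and 45.2 FPKM, and the ubiquitin ligase gene Ring1 fell 3.28-fold. With no filter on low values 1 rose and 1 fell, and with the exonic length trend removed 7 rose.

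Of 20 genes that control MYC protein stability, 4 rose and 4 fell (20% each, beside 22.1% and 31.2% of all tested genes), with a median of -0.054 log2. Leaving out either PBS library added calls in this list, as it did over all tested genes. Skp2, a ubiquitin ligase subunit that targets MYC, rose 2.04-fold (18.1 and 11.7 to 29.2 and 31.7 FPKM). The mitotic kinase genes Aurka and Plk1 rose 1.76-fold and 1.57-fold. Usp28, a deubiquitinase that protects MYC, fell 2.55-fold (11.2 and 13.3 to 4.43 and 5.21 FPKM), and the ligase genes Fbxl14 and Stub1 fell 3.01-fold and 1.55-fold. The remaining fall, that of Cip2a (-0.46 log2), was lost in 11 of 16 alternative settings. With median-ratio scaling 5 rose and 3 fell, with no filter 2 and 2, and 7 rose with the exonic length or the span trend removed.

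Of 14 tested regulators of Myc transcription and mRNA, 5 rose and 2 fell (35.7% and 14.3%, beside 22.1% and 31.2% of all tested genes). Calls were added when either PBS library was left out, in this list and over all tested genes. Ctnnb1, which encodes beta-catenin, the Wnt effector that drives Myc in intestinal cells, fell 3.39-fold, from 92.6 and 98.0 FPKM to 27.8 and 28.4 FPKM (-1.73 ± 0.103 log2, limma adjusted p = 0.0027). Zfp36, which encodes an mRNA decay factor that binds AU-rich elements, rose 6.46-fold, from 8.91 and 8.42 FPKM to 58.1 and 53.8 FPKM (2.56 ± 0.113 log2, adjusted p = 0.0027). Both kept their calls without either 5-FU library (adjusted p = 0.0461 and 0.0482 for Ctnnb1 without replicates 1 and 2, 0.0379 and 0.0404 for Zfp36). Cnbp and Fubp1, nucleic acid-binding proteins tied to the Myc promoter, rose 2.23-fold and 1.93-fold, and Igf2bp2, an RNA-binding protein that stabilizes mRNA, fell 1.61-fold, a call lost in 8 of 16 alternative settings. The call of Fubp1 was lost with no filter and with quantile normalization. Pvt1, the long noncoding RNA gene next to Myc, measured 0.917 and 1.47 FPKM in PBS and 0.704 and 0.589 in 5-FU and was too low to test. With median-ratio scaling 5 of the list rose and 1 fell.

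**Figure D4:**
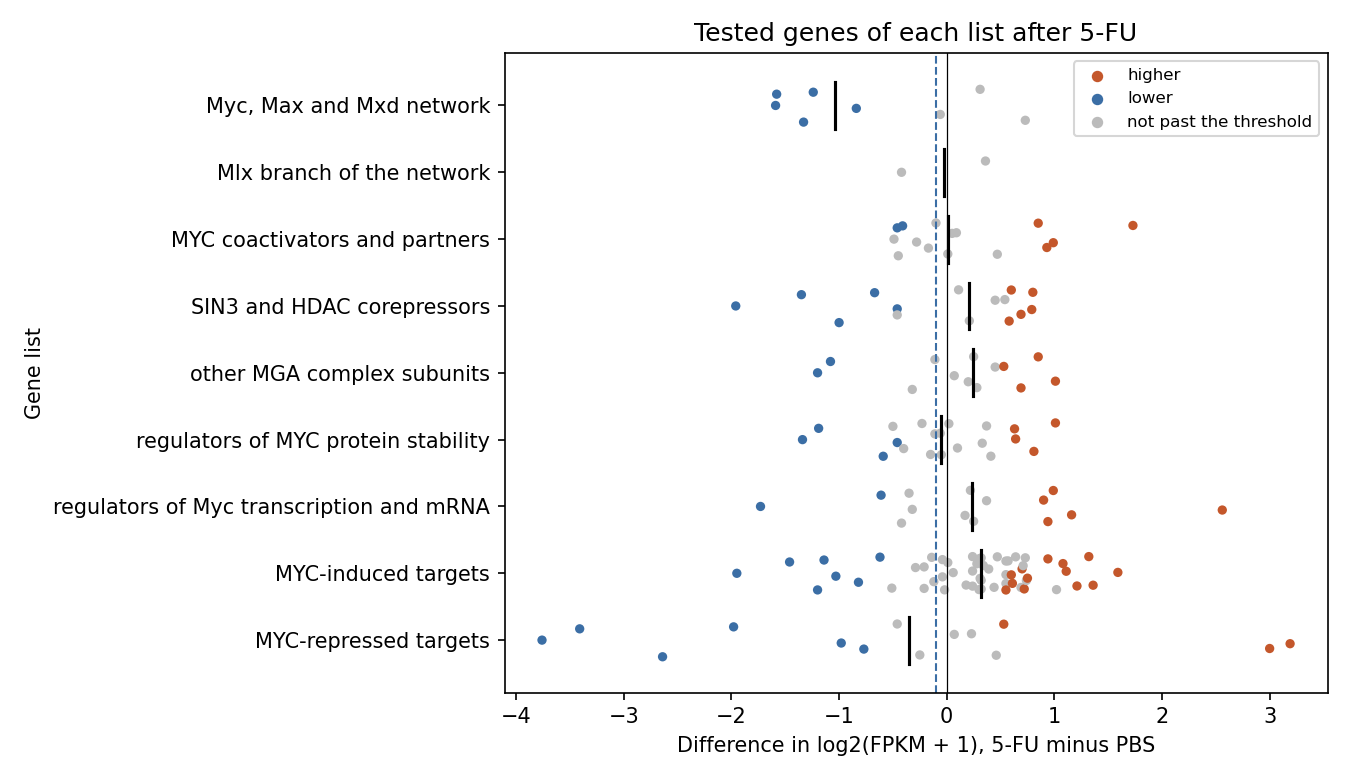
Difference in log2(FPKM + 1), 5-FU minus PBS, of every tested gene in each list (orange higher, blue lower, grey not past the threshold; black bars are list medians, and the vertical spread only separates points). The dashed line marks -0.097, the median over all tested genes; the network's bar lies at -1.04 and that of the MYC-induced targets at 0.319.

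Textbook targets that MYC induces were counted next. Of 56 such genes, 13 rose (23.2%, beside 22.1% of all tested genes), 7 fell (12.5%, beside 31.2%) and 36 did not pass, with a median of 0.319 log2. Both 5-FU libraries lay above both PBS libraries for 32 of the 56 and below them for 10. Such separation held for 35.9% (above) and 45.1% (below) of tested genes. Gnl3, a nucleolar GTPase gene, had the largest rise (1.59 log2), Nme1, a nucleoside diphosphate kinase gene, rose 2.57-fold (22.8 and 13.5 to 47.5 and 46.0 FPKM), and Dkc1, the pseudouridine synthase gene, rose 2.41-fold (31.0 and 14.9 to 53.0 and 57.3 FPKM). The other rises were those of Nop58, Ddx21, Ddx18, Odc1, Apex1, Eif4a1, Prdx3, Phb2, Hspe1 and Tfam. They ran from 0.55 log2 for Tfam to 1.21 for Nop58. With no filter on low values, only Gnl3, Eif4a1, Prdx3 and Hspe1 of the 13 kept their calls. With quantile normalization, Nop58, Ddx21, Odc1, Phb2 and Hspe1 lost theirs.

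Among the 7 targets that fell, Hk2, the hexokinase gene, fell 4.23-fold, from 31.7 and 37.2 FPKM to 8.26 and 8.03 FPKM (-1.95 ± 0.131 log2, limma adjusted p = 0.0027). Cad, the enzyme that starts pyrimidine synthesis, fell 3.05-fold, although PBS replicate 1 (38.0 FPKM) was far above PBS replicate 2 (21 FPKM), with 9.96 and 9.41 FPKM in 5-FU. E2f1, the S phase transcription factor gene, fell 2.39-fold (45.7 and 36.3 to 17.6 and 16.8 FPKM). Further falls were those of Ldha (-1.14 log2), Ccnd2 (-0.82) and E2f3 (-0.62). The counts depended on the setting. With median-ratio scaling 22 rose and 6 fell, beside 3193 and 3218 of all 11644 tested genes. With the exonic length trend removed 20 rose and 5 fell, beside 2965 and 2855 of 11644. With no filter 4 rose and 3 fell, beside 2368 and 2836 of 23640. More targets passed with either PBS library left out and far fewer with either 5-FU library left out. The calls over all tested genes changed in the same direction, though the share of targets called higher grew more without a PBS library.

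Targets with and without a canonical E-box were set side by side. Of 48 MYC-induced targets with a RefSeq window, 15 held CACGTG (31.2%, beside 8.09% of all genes with a window). The related CACGCG was found for 17 of the 48 (35.4%, beside 10.5%), and the split below does not take it into account. All genes with a window include genes not tested here. Over all tested genes 22.1% rose and 31.2% fell, with a median of -0.097 log2. Of the 15 targets with CACGTG, 3 rose and 2 fell, with a median of 0.24 log2. Of the 33 targets without CACGTG, 10 rose and 3 fell, with a median of 0.547 log2. The difference between these groups of genes was not tested.

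Among 14 tested genes that MYC is known to repress, 3 rose and 6 fell (21.4% and 42.9%, beside 22.1% and 31.2% of all tested genes), with a median of -0.353 log2. The number of calls was larger with either PBS library left out, as it was over all tested genes. Cdkn1b, which encodes the cyclin-dependent kinase inhibitor p27, fell 7.67-fold, from 26.1 and 47.8 FPKM to 4.63 and 5.00 FPKM (-2.64 ± 0.302 log2, limma adjusted p = 0.0045; 0.0508 without 5-FU replicate 1). The growth arrest gene Gas1 (-3.76 log2) and the stress gene Ndrg1 (-3.41 log2) fell further, and Cdkn2b, Itga1 and Cdkn1a fell by 1.98, 0.98 and 0.77 log2. Gas1 measured 22.5 and 19.6 FPKM in PBS and 0.665 and 0.573 in 5-FU, a 34-fold fall by ratio of means. The PBS libraries were far apart for Ndrg1 (68.5 and 159 FPKM, then 8.92 and 8.92 in 5-FU). They were also far apart for Cdkn2b (5.97 and 14.4 FPKM, then 1.79 and 1.46). Txnip and Gadd45g rose by 3.19 and 3.0 log2, and Tgfbr2, a receptor gene, by 0.53 log2. With no filter, 2 rose and 3 fell, the calls of Tgfbr2 and Itga1 among those lost. That of Itga1 was also lost with the exonic length or the span trend removed.

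Across all these lists, 69 genes passed, members included, where 22.1% of all tested genes rose and 31.2% fell. Of the 69, 37 lost their call in at least 1 alternative that kept all 4 libraries. How many of all called genes did so was not counted. Without 1 or the other 5-FU library, 60 of the 69 lost their call and 9 kept it: Ing2, Ctnnb1, Zfp36, Gnl3, Hk2, Gadd45g, Ndrg1, Gas1 and Txnip. In these fits the error comes from the PBS pair alone, and only 259 (higher) and 237 (lower) of 11644 genes passed without 5-FU replicate 1, and 293 and 299 without 5-FU replicate 2.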

How the data were processed

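Transcripts were measured by sequencing of polyadenylated RNA in 4 MC38 libraries, 2 given PBS and 2 given 5-FU. The authors deposited FPKM values for 36445 genes. Per the submitters' processing notes, STAR 2.4.1a and Picard 2.9.0 were used with GRCm38, in roles not stated there. The counting step, its annotation and its use of strand remain not given in the sources used here. Coordinates and lengths came from GENCODE M21 (GRCm38), which held 36295 of the gene IDs. Promoter windows came from RefSeq on GRCm38.p6, and a window for Myc was not used here.

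Genes that reached 1 FPKM in 2 or more libraries were tested on log2(FPKM + 1) by limma 3.58.1 under R 4.3.3, with moderated variances that follow an intensity trend, two-sided, with Benjamini-Hochberg adjustment over all tested genes. Log2 differences on this scale understate the change of low genes, and folds are ratios of mean FPKM. An exact permutation test of 2 against 2 libraries cannot go below p = 0.333, so none was run. Depth was estimated from the FPKM steps and GENCODE lengths. At the estimated depth, 63.1% to 65.1% of values below 100 reads lay within 0.02 of a whole read. The fit was also run on simulated data with equal spread in both groups, which says nothing of error rates in these libraries.

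The members and gene lists were chosen with earlier results of these data known. Named genes were all 10 members and up to 3 genes per list and direction by size of the difference (or the 2 with the smallest p). The 3 genes nearest in profile to Myc, Max and Mxi1 were also named, without unnamed gene models and without the genes of 1 chromosome. Further list genes are named to complete a count. The values of 1 list gene are not reported here. Same-numbered replicates did not deviate together (r = -0.0101 across 11644 genes), so they were not paired.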

Additional observations from a re-analysis of the deposited data

How the results depend on the processing

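The fit was repeated with pseudocounts of 0.1 and 0.5, a filter at a mean of 5 FPKM or no filter, quantile normalization, median-ratio scaling, variances moderated robustly or without the trend, the replicate block, leaving mitochondrial and ribosomal protein genes out, removal of the exonic length or span trend, and leaving out each library. Between 4 and 5 members fell in every alternative that kept all 4 libraries, with Mga not tested at a mean of 5 FPKM or more and Mxd3 not passing with no filter or quantile normalization. With a library left out, 0 to 6 members fell and 0 to 2 were higher. The count higher was 1 with median-ratio scaling (Max), and 1 with quantile normalization, with the exonic length trend removed and with the replicate block (Mxd1 each time). The replicate number as a block otherwise changed no member's call (Mxd1 adjusted p = 0.0358, with 5 members lower), and 19 MYC-induced targets rose and 6 fell under it. MYC-induced targets higher numbered 4 with no filter, 22 with median-ratio scaling and 20 with the exonic length trend removed, and those lower 3 with no filter. With a library left out, 1 to 42 rose and 1 to 16 fell. No called gene of any list reversed direction in any alternative. The median over all tested genes moved from -0.097 to 0.013 with median-ratio scaling and to 0.021 with quantile normalization, where 3193 and 2946 genes were higher and 3218 and 2825 lower. The PBS libraries were about 2 times as deep, and low levels kept Mycn, Mycl, Mlxipl, Lef1, Igf2bp1, Pvt1, Cdkn1c, Ndrg2 and Cebpa from being tested. Where 1 library is left in a group, its spread is taken from the other group.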
